A study of Drosophila melanogaster with 18 samples.

Results

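The glutathione S-transferases (Gst) and UDP-glycosyltransferases (Ugt) are the main conjugating enzymes of the fly. They were taken here as every probe set with a single gene whose symbol begins with Gst and a class letter or with Ugt and a family number. This gave 71 probe sets for 69 genes, of 18952 probe sets and 11981 named genes in the whole series. There were 34 Gst genes in 36 probe sets and 35 Ugt genes in 35 probe sets, and GstE8 was the only one of 70 such genes in RefSeq that was not measured.

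RNA of whole adult *Drosophila melanogaster* males, 4 days after eclosion (day 14 of the culture cycle), was hybridised to Affymetrix Drosophila Genome 2.0 arrays after 50 generations of experimental evolution. MLX males came from populations in which the X had been passed from father to son for many generations by means of females carrying a compound double X (DX). CDX males had a Control father and a DX mother, and therefore received the X from their father for a single generation. MLX and CDX males received the Y from their DX mother. According to the paper, the Y of CDX males derived from the MLX populations. Control males received the X from their mother and the Y from their father, as usual. All populations descended from the laboratory population LHm and were kept under the same culture regime. Each treatment had 3 populations with 2 arrays each, and thus 6 arrays. The methods give 8 males per array, whereas the labels give 1 male per array. As the RNA is of the whole body, fewer cells of a type and less RNA per cell cannot be told apart.

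Gst enzymes join glutathione to electrophilic compounds such as insecticides, plant toxins and products of lipid peroxidation. Ugt enzymes transfer a sugar, in insects mainly glucose, to small lipophilic molecules, which makes them easier to excrete. Both families can act after the oxidation of a compound by cytochrome P450s, both are prominent in the midgut, fat body and Malpighian tubules, and many of their genes stand in tandem arrays. The delta and epsilon classes (GstD and GstE) are expanded in insects, while the omega, sigma, theta and zeta classes (GstO, GstS, GstT and GstZ) are shared with other animals.

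The genes fell into 11 GstD, 13 GstE, 3 GstO, 1 GstS, 4 GstT and 2 GstZ genes, and into 13 Ugt families of 1 to 8 genes. The largest Ugt families were Ugt37 with 8 and Ugt35 with 6 genes. Of the 69 genes, 30 were on chromosome arm 3R, 21 on 2R, 11 on 2L, 5 on 3L and 2 on the X. A total of 50 genes stood in 11 clusters with no more than 2 other genes between neighbours, and 19 stood outside them. The 3 largest clusters were 11 GstD genes on 3R, 9 measured GstE genes on 2R and 10 Ugt genes on 3R. For 7 of the 71 probe sets the mean log2 expression was under 4.66, the 25th percentile of all probe sets, so that differences in these are of weak signals.

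The array levels bear on these comparisons in several ways. A mean over 17 yolk and eggshell genes, which are transcripts of females, was between 6.50 and 7.39 on 6 arrays, each from a different population, and between 5.41 and 5.91 on the other 12. Of these 6 arrays 2 were of MLX, 3 of CDX and 1 of Control males, and the mean was 6.01 ± 0.78 in MLX, 6.28 ± 0.69 in CDX and 5.68 ± 0.52 in Control males (log2, SD, n = 6 arrays). The difference between 3' and 5' probe sets of 4 control transcripts, a sign of RNA quality, was 1.38 ± 0.10 in MLX, 1.48 ± 0.09 in CDX and 1.49 ± 0.09 in Control males. The mean over 9 fat body and haemolymph genes was 10.25 ± 0.09 in MLX, 10.44 ± 0.06 in CDX and 10.49 ± 0.13 in Control males. The larval serum protein gene Lsp2, at -1.73 for MLX minus Control, made up most of this gap, as the other 8 genes differed by -0.18 to 0.03. Means over 8 Malpighian tubule genes were 8.84 ± 0.08, 8.87 ± 0.05 and 8.89 ± 0.09 in MLX, CDX and Control males. Means over 13 midgut genes were 12.69 ± 0.10, 12.70 ± 0.09 and 12.79 ± 0.09, and over 7 muscle genes 10.49 ± 0.11, 10.33 ± 0.10 and 10.34 ± 0.13, in MLX, CDX and Control males. TpnC4 (0.66) and Act88F (0.38) carried most of the muscle difference between MLX and Control, and the median over its genes was 0.05. The part of the fat body, tubule, midgut and muscle levels in the values of the conjugation enzymes was not tested.

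The comparison of MLX with Control males asks what changed under repeated transmission of the X through males. It also covers the DX mother, the Y received from her and the autosomes, which came from separate populations in MLX and Control males. No Gst or Ugt probe set passed an adjusted p of 0.05 in limma, and neither did any of the 18769 probe sets tested (0%). At an unadjusted p under 0.05, 3 of the 71 probe sets were higher and 2 were lower in MLX males, against backgrounds of 2.16% of all probe sets higher and 2.04% lower. All 5 had an adjusted p above 0.99. The paper, by contrast, reports transcripts that differed between treatments at a false discovery rate of 0.05, with population as a random factor. A mixed model per probe set called none here for MLX against Control either, and the reason for this disagreement was not tested. The median log2 difference was 0.0035 over the Gst genes (19 of 34 higher) and 0.0064 over the Ugt genes (19 of 35 higher), beside 0.0073 over all named genes, of which 54.2% were higher.

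GstO3, an omega class enzyme, was the only Gst gene among the 5. Its log2 expression had a lowest, median and highest value of 10.66, 10.76 and 11.04 in MLX males, and of 10.93, 11.05 and 11.12 in Control males. The arrays overlapped, but the 3 population means of MLX all lay under those of Control. The log2 difference was -0.25 (SE 0.10, unadjusted p = 0.0228 in limma).

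Of the other 4 genes, 3 belong to the Ugt cluster on 3R. Ugt304A1 had a lowest, median and highest log2 expression of 6.65, 7.13 and 7.55 in MLX males and of 6.59, 6.76 and 7.01 in Control males. The values overlapped, and the difference was 0.33 (SE 0.13, unadjusted p = 0.0175 in limma). Without MLX population 2 it was 0.21. Ugt302K1, which lies towards the other end of the cluster, had 4.68, 4.84 and 5.04 in MLX males and 4.51, 4.63 and 4.78 in Control males. This was a difference of 0.20, or 0.12 without MLX population 2. The Control mean of Ugt302K1 was 4.65, under the 25th percentile of 4.66, so that its signal was weak too. Ugt35E1 lay the other way, with 4.08, 4.23 and 4.52 in MLX males and 4.19, 4.63 and 4.72 in Control males, a difference of -0.27 in a weakly hybridised probe set. Within the 10 genes of this cluster, 7 were higher and 3 lower in MLX males, with a median of 0.24. The populations of MLX did not agree in this, since the mean deviation of the 10 genes from their own means was 0.03, 0.24 and -0.14 in MLX populations 1, 2 and 3, and -0.14, -0.08 and -0.03 in Control populations 1, 2 and 3. Ugt37D1, in a cluster of 3 genes on 2L, had 9.33, 9.59 and 9.65 in MLX males and 9.19, 9.31 and 9.52 in Control males, a difference of 0.22.

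The comparison of CDX with Control males covers the DX mother, the Y and autosomes received from her and 1 generation of paternal X transmission. These cannot be told apart in it. Again no member passed the adjusted threshold (0% of all probe sets did). At an unadjusted p under 0.05, 5 of the 71 probe sets were higher and 1 was lower in CDX males, all of them Ugt genes. The backgrounds were 1.50% of all probe sets higher and 1.49% lower. The median log2 difference was 0.042 over the Gst genes (21 of 34 higher) and 0.074 over the Ugt genes (23 of 35 higher), beside 0.0059 over all named genes, of which 53.6% were higher. Without CDX population 2 these medians were -0.0017 over the Gst genes and 0.035 over the Ugt genes, and 1 member was left at an unadjusted p under 0.05. Over all 18769 probe sets 193 were higher and 182 lower at that threshold without this population, against 281 and 279 in the main fit.

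Ugt37A3 had the smallest p of the members. Its log2 expression was 6.43, 6.68 and 7.13 in CDX males (lowest, median and highest of 6 arrays) and 6.17, 6.42 and 6.56 in Control males. The difference was 0.35 (SE 0.10, unadjusted p = 0.00185, adjusted p = 0.9998 in limma). The population means of CDX all lay above those of Control, while some single arrays overlapped. The highest arrays were the 7.13 and 6.80 of CDX population 3. Its neighbour Ugt37A2 lay in the same direction with a difference of 0.32.

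The other 4 genes with higher values in CDX males were Ugt304A1, Ugt303A1, Ugt302K1 and Ugt301D1. The first 3 are in the Ugt cluster on 3R. Ugt304A1 had 6.91, 7.11 and 7.34 in CDX males against 6.59, 6.76 and 7.01 in Control males, a difference of 0.31. Ugt303A1 had 6.53, 6.62 and 7.18 in CDX males against 6.17, 6.36 and 6.73 in Control males, also a difference of 0.31. In both genes the population means of CDX lay above those of Control. These genes, like GstO3 and Ugt37A3 above, were picked by their p from the same values, so that separate population means are no further support. Ugt302K1 differed by 0.19 and Ugt301D1 by 0.13, with overlapping populations, and without CDX population 2 by 0.12 and 0.083. Ugt37E1 was the gene with lower values, at 4.05, 4.13 and 4.24 in CDX males against 4.12, 4.32 and 4.41 in Control males, again in a weakly hybridised probe set. The comparisons of MLX and of CDX share the Control arrays, so the values of Ugt304A1 and Ugt302K1 in both are not independent of each other.

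The comparison of MLX with CDX males sets many generations of paternal transmission against 1. It also covers the father and his autosomes, from the MLX populations in MLX males and from Control populations in CDX males. These cannot be told apart from the X in it. No probe set passed the adjusted threshold (0%). At an unadjusted p under 0.05, 0 members were higher and 2 were lower in MLX males, with backgrounds of 1.43% higher and 1.18% lower. The median log2 difference was -0.025 over the Gst genes (12 of 34 higher) and -0.030 over the Ugt genes (14 of 35 higher), beside 0.0018 over all named genes, of which 51.2% were higher. Ugt37A3 had 6.27, 6.37 and 6.44 in MLX males and 6.43, 6.68 and 7.13 in CDX males. The arrays overlapped only between 6.43 and 6.44, and the difference was -0.37 (SE 0.10, unadjusted p = 0.00129 in limma). Across the alternative settings it lay between -0.46 and -0.25. Ugt37C2 had 5.26, 5.31 and 5.53 in MLX males and 5.39, 5.60 and 5.78 in CDX males, a difference of -0.22.

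**Figure D1:**
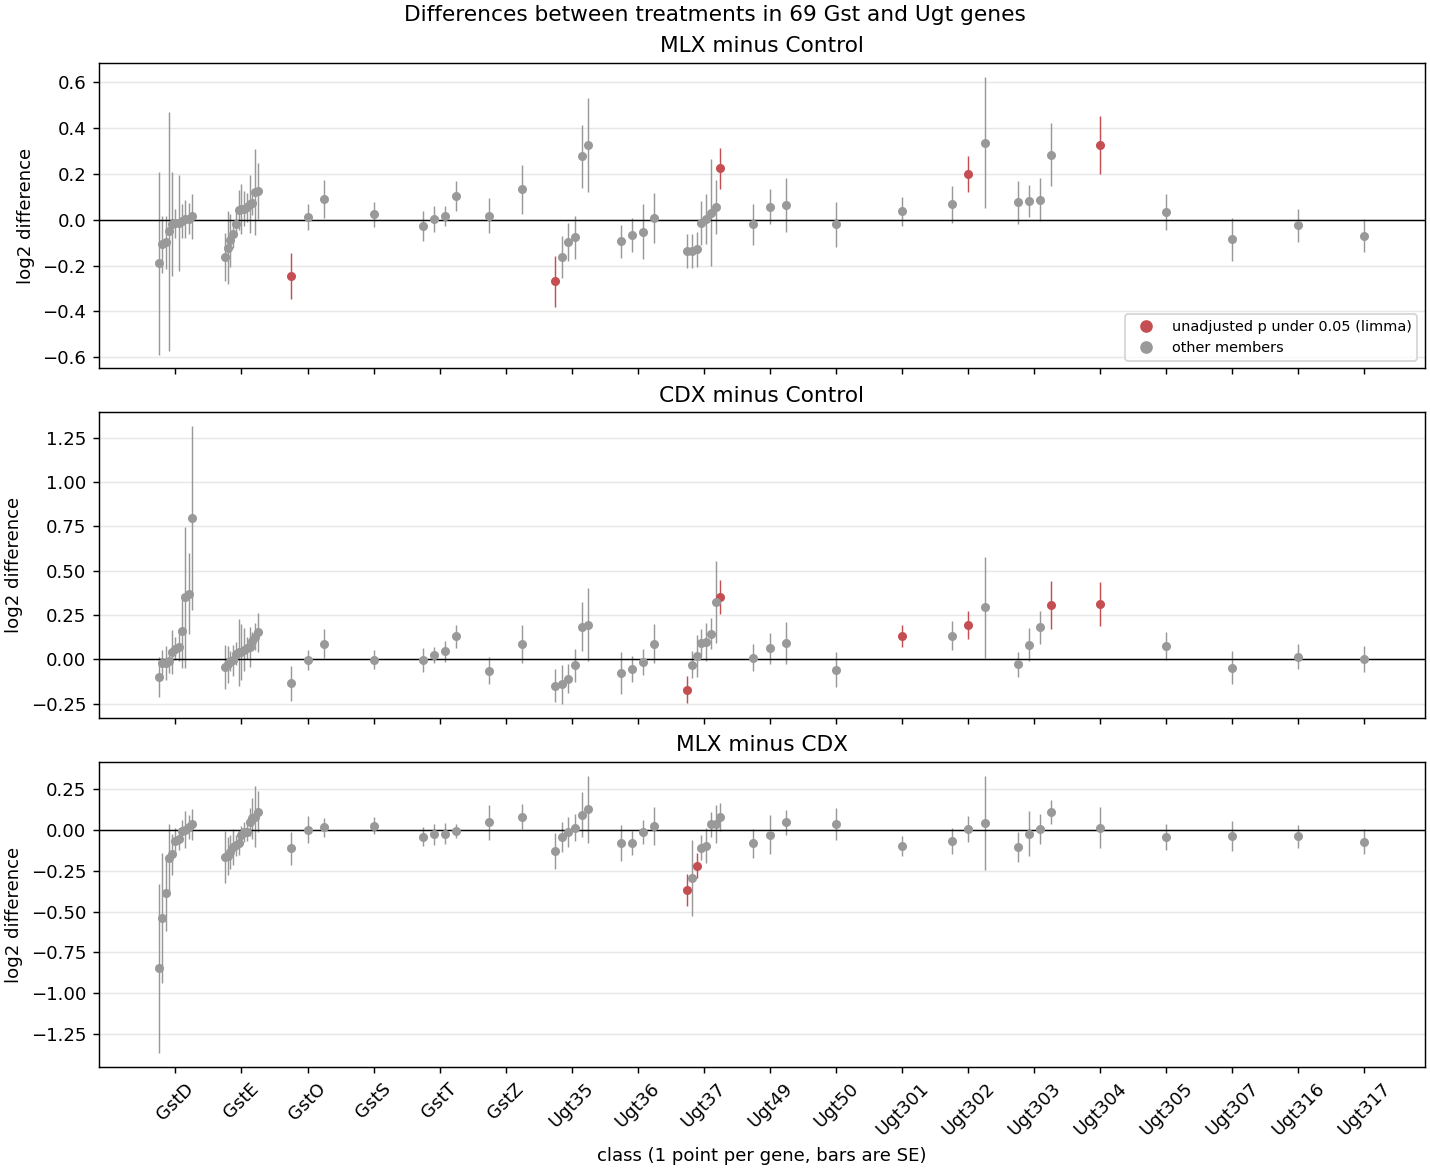
Log2 differences (vertical axis) of the 69 Gst and Ugt genes by class (horizontal axis) for MLX minus Control, CDX minus Control and MLX minus CDX, 1 point per gene at its brightest probe set, with bars for the SE from limma. Red points, which are at an unadjusted p under 0.05, lie mostly among Ugt genes, and the widest bars are in the GstD class.

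In both comparisons with CDX males the largest differences of any member, and the largest errors, were those of GstD2, which is one of a group of delta genes that lie side by side on 3R. It had log2 values of 7.24, 7.96 and 8.86 in MLX males, 7.33, 8.71 and 9.97 in CDX males and 6.87, 7.75 and 9.70 in Control males (lowest, median and highest). All 3 treatments overlapped widely. The difference between MLX and CDX males was -0.85 (SE 0.52, unadjusted p = 0.119 in limma), and that between CDX and Control males was 0.80. Without CDX population 2 the difference between MLX and CDX was -0.47, and without CDX population 1 it was -1.40.

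The spread of GstD2 was mainly between arrays of the same population. Control population 3 had an array at 6.87 and another at 9.70, and CDX population 3 had 9.81 and 8.37. In CDX population 2 both arrays were high, at 9.97 and 9.06. GstD5, GstD8 and GstD4, which were chosen for mention after their values were seen, were also highest in CDX population 2. GstD5 had 7.95 and 7.11 there, while the second array of MLX population 2 had 7.65, and the other 15 arrays lay between 5.19 and 6.59. The arrays with 7.95 and 7.65 were among the 6 high in yolk and eggshell transcripts, and the array with 7.11 was not. The remaining arrays high in these transcripts lay between 5.19 and 6.59 in GstD5. For GstD2 the values of 9.97 and 9.81 were on such arrays, and those of 9.70 and 9.06 were not. GstD1, whose product can metabolise DDT, had a narrower range. It had 13.31, 13.51 and 13.54 in MLX males, 13.41, 13.50 and 13.68 in CDX males and 13.31, 13.45 and 13.63 in Control males, and its differences were all within 0.06 of 0.

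In the conserved classes GstO3, given above, had the largest difference. GstS1, the sigma class enzyme of flight muscle, had 12.58, 12.64 and 12.73 in MLX males, 12.57, 12.60 and 12.73 in CDX males and 12.46, 12.65 and 12.72 in Control males. Its log2 differences lay within 0.03 of 0, each with an SE of 0.05. GstO1 and GstT1 had differences within 0.03 of 0 in the 3 comparisons. The zeta genes, which encode maleylacetoacetate isomerases of tyrosine breakdown, had medians of 7.43, 7.32 and 7.46 in MLX, CDX and Control males for GstZ1. For GstZ2 the difference between MLX and Control was 0.13 (SE 0.11), or 0.082 without MLX population 1. The 2 probe sets of GstO2 differed in sign for MLX minus Control, at 0.088 and -0.044, each within about 1 SE of 0.

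The X-linked members were GstT3 and GstT4, both theta genes. GstT4 had 11.37, 11.50 and 11.71 in MLX males, 11.46, 11.51 and 11.75 in CDX males and 11.37, 11.40 and 11.50 in Control males. The differences were 0.10 for MLX minus Control and 0.13 for CDX minus Control (SE 0.06, unadjusted p = 0.130 and 0.0609 in limma), and without CDX population 2 the second was 0.072. GstT3 differed by -0.03 and -0.0043 in the same comparisons.

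Differences between the populations of a treatment were tested separately. The moderated F test of limma on the 6 contrasts between populations within treatments gave 2 of 71 member probe sets at an adjusted p under 0.05, against a background of 1.35% of all probe sets. At an unadjusted p under 0.05 there were 26 of 71 members (36.6%), against 16.8% of all probe sets. These were 13 of 34 Gst genes and 13 of 35 Ugt genes. In the median Gst gene 0.38 of the variance within treatments lay between populations as an intraclass correlation, and in the median Ugt gene 0.24, beside 0.24 over all named genes. The median range of the 9 population means was 0.35 over the Gst genes and 0.38 over the Ugt genes, beside 0.26 over all named genes.

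GstE1 and GstE2, adjacent genes of the epsilon class, whose enzymes act on insecticides and on aldehydes from lipid peroxidation, were the members past the adjusted threshold. GstE1 had log2 values of 12.37 and 12.41 in MLX population 1, 11.28 and 11.52 in MLX population 2, and 12.34 and 12.17 in MLX population 3. In CDX males it had 12.05 and 11.77, 11.70 and 11.88, and 11.93 and 12.29 in populations 1, 2 and 3. In Control males it had 12.25 and 12.24, 11.72 and 11.83, and 11.49 and 11.84. Both arrays of MLX population 2 were thus lower than every other array but 1, the lower array of Control population 3. The population means spanned 0.99, and the F was 13.7 (adjusted p = 0.0130).

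GstE2 followed a similar order. Its population means were 8.29, 7.69 and 8.13 in MLX, 7.73, 7.98 and 8.07 in CDX and 8.21, 7.81 and 7.89 in Control populations 1, 2 and 3 (F = 11.1, adjusted p = 0.0220 in limma). The treatments themselves overlapped, since GstE1 differed by 0.12 between MLX and Control (SE 0.19). GstE1 and GstE2 had a correlation of 0.81 over the 18 arrays after removal of the treatment means. Each call was lost without MLX population 1, without MLX population 2 and without the 6 arrays high in yolk and eggshell transcripts, where the adjusted p was 0.114 for GstE1 and 0.464 for GstE2. That last setting leaves 1 array in 6 of the populations. Both calls were also lost in a plain F test (adjusted p = 0.0918 and 0.0953), and that of GstE2 with the 3' minus 5' covariate (0.0607) and without CDX population 1 (0.0544).

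The rest of the epsilon cluster varied between populations as well. Of its 9 measured genes, 8 had an unadjusted p under 0.05, beside 18.8% of all named genes. The exception was GstE4. In Control population 1, 7 of the 9 lay above their own mean over 18 arrays, while 8 of 9 lay under it in Control population 2 and 7 of 9 in MLX population 2. The share of all named genes above their own mean in each population is not given here, so these counts have no background. GstE7 was lowest in CDX population 1, at 9.61 and 9.79, and highest in Control population 1, at 10.19 and 10.24 (F = 6.08, adjusted p = 0.105). GstE6, GstE7 and GstE9 were correlated with each other at 0.78 to 0.83, whereas GstE1 and GstE4 had -0.15. The mean correlation between pairs of the 9 genes was 0.33, and that over all named genes was 0.02. These are descriptions over 18 arrays that share a normalisation, and close paralogues may also share hybridisation.

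**Figure D2:**
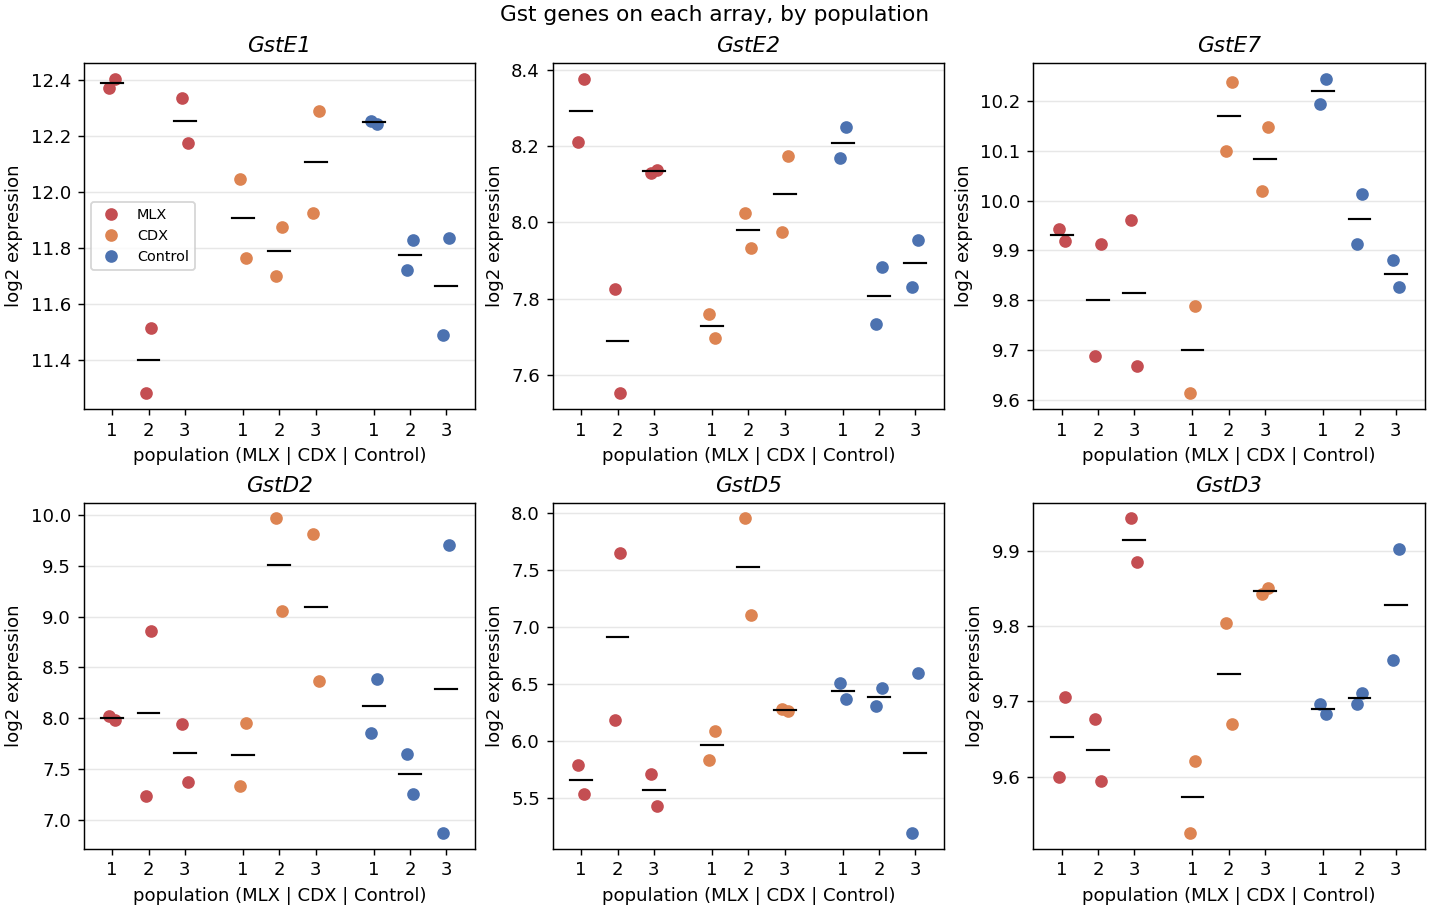
Log2 expression (vertical axis) of 6 Gst genes on each of the 18 arrays, by population 1 to 3 of MLX, CDX and Control males from left to right, with a line at the mean of the 2 arrays. GstE1 and GstE2 are low in MLX population 2 beside the other MLX populations, and the 2 arrays of Control population 3 lie far apart in GstD2.

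In the Ugt cluster on 3R, 5 of 10 genes had an unadjusted p under 0.05 between populations, beside 18.8% of all named genes, and 0 an adjusted one. Ugt35A1 was highest in MLX population 2, at 9.71 and 9.66, against 8.80 to 9.37 in the other MLX arrays (F = 5.62, adjusted p = 0.121). Ugt302E1 was highest in CDX population 2, at 7.19 and 6.40, followed by MLX population 2 at 6.53 and 6.68, while MLX population 3 had 5.30 and 5.77. Of these values 7.19, 6.68 and 5.77 were on arrays high in yolk and eggshell transcripts. Ugt35C1, an enzyme associated with nicotine resistance in larvae, had 10.25 to 10.91 in MLX populations 1 and 2 against 9.62 and 9.75 in MLX population 3. All 10 genes lay under their own mean in MLX population 3, and 8 of 10 lay above it in MLX population 2. The share of all named genes in these populations is not given here, so that whether this was particular to the cluster was not tested. Ugt304A1 and Ugt303A1, neighbours at the end of the cluster, had a correlation of 0.86, and Ugt35E2 and Ugt304A1 had -0.68. The mean over all pairs was 0.13, so that the cluster did not vary as a block. Correlations as high were found between genes of different clusters, such as 0.89 for Ugt303B1 and Ugt304A1 and 0.84 for GstD1 and GstE7.

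**Figure D3:**
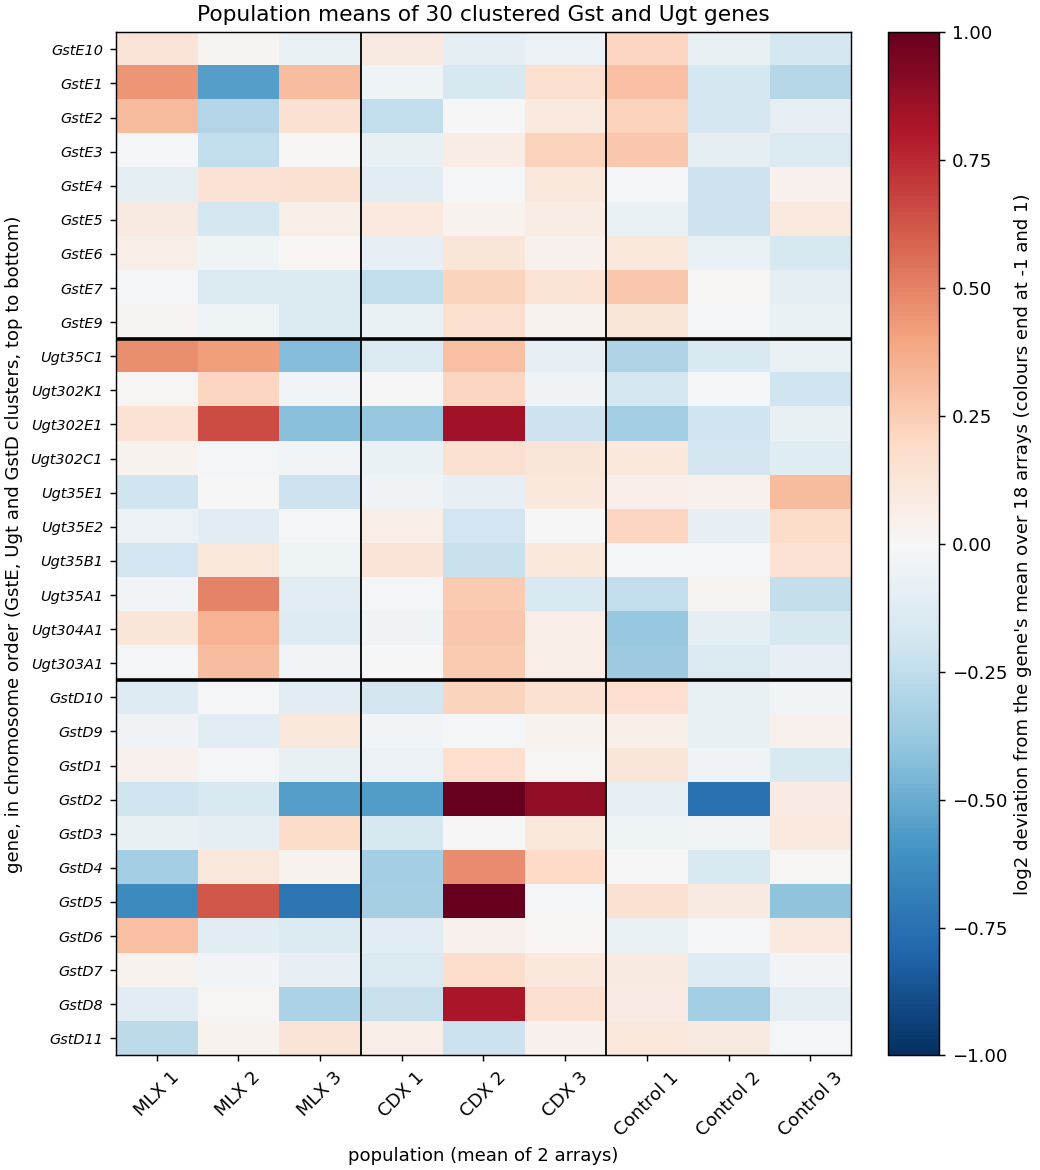
Deviation of each population mean (2 arrays) from the gene's mean over 18 arrays, in log2 units shown by colour, for 30 genes in chromosome order (9 GstE, 10 Ugt and 11 GstD genes from top to bottom) and the populations of MLX, CDX and Control males. GstE1 stands out as low in MLX population 2, Ugt302E1 as high in MLX population 2 and CDX population 2, and GstD2, GstD5 and GstD8 as high in CDX population 2.

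The delta cluster had 4 of 11 genes at an unadjusted p under 0.05 between populations, beside 18.8% of all named genes. GstD3 varied little within a population, with 9.94 and 9.88 in MLX population 3 and 9.53 and 9.62 in CDX population 1 (F = 5.74, adjusted p = 0.115). GstD2 had the widest range of population means, 2.06, but an intraclass correlation near 0 and an adjusted p of 0.532. In CDX population 2, 9 of the 11 genes were above their own mean, as were 10 of 11 in CDX population 3 and 1 of 11 in CDX population 1. These counts, too, have no share of all named genes beside them. The male accessory gland mean (11 genes) was 12.78 in CDX population 2 and between 12.98 and 13.20 in the other 8 populations, and its part in the GstD values was not tested. Outside the clusters, Ugt50B3 was highest in Control population 3, at 10.86 and 11.22, and Ugt307A1 ranged between 4.79 in MLX population 3 and 5.30 in MLX population 1.

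**Figure D4:**
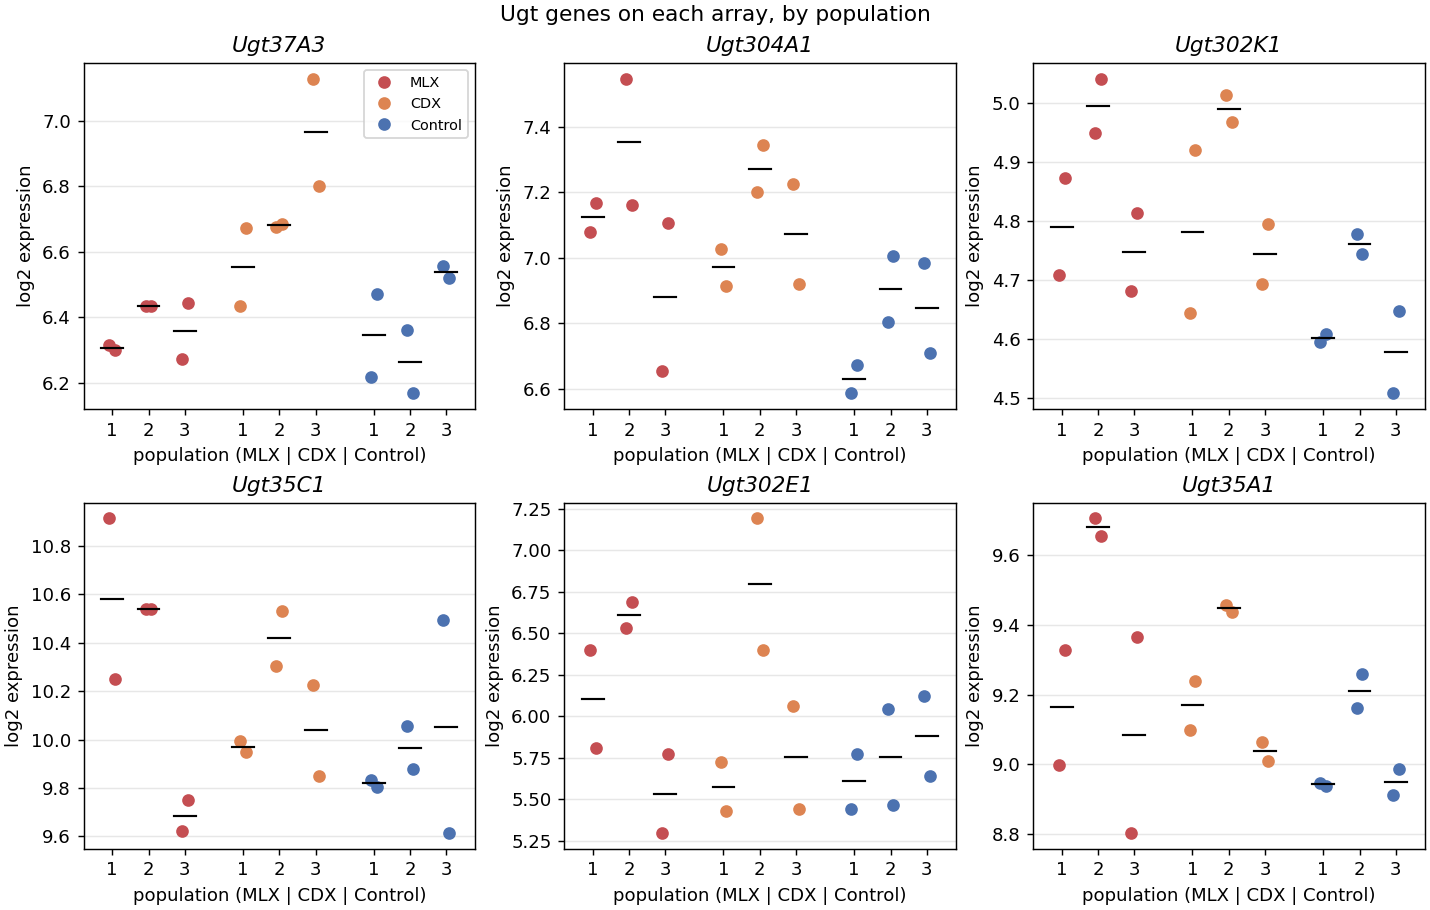
Log2 expression (vertical axis) of 6 Ugt genes on each of the 18 arrays, by population 1 to 3 of MLX, CDX and Control males from left to right, with a line at the mean of the 2 arrays. Ugt37A3 is higher in CDX than in MLX males on nearly all arrays, and Ugt35C1 is lower in MLX population 3 than in MLX populations 1 and 2.

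Other genes of detoxification were counted in the same way, beside the backgrounds of 2.16% higher and 2.04% lower for MLX minus Control and 1.50% and 1.49% for CDX minus Control. Of 15 other conjugation and glutathione genes, 2 reached an unadjusted p under 0.05 for MLX minus Control, both higher in MLX males. These were Mgstl, a microsomal glutathione transferase, at 0.13, and the sulfotransferase St1 at 0.22. Mgstl was the only one of them in CDX against Control males, also at 0.13. Of 9 regulators, Keap1, the inhibitor of the antioxidant factor Cnc, differed by -0.11 between MLX and Control and by -0.12 between CDX and Control, and the nuclear receptor Hr38 by -0.22 and -0.28. Of 13 cytochrome P450 genes, Cyp6a2 differed by 0.27 between MLX and Control and by 0.31 between CDX and Control, and Cyp9b2 by 0.35 between CDX and Control. In both comparisons 10 of the 13 P450 genes were higher, with medians of 0.03 for MLX minus Control and 0.10 for CDX minus Control. None of 5 efflux transporters or 8 antioxidant enzymes reached an unadjusted p of 0.05 in any comparison, and none of these genes passed the adjusted threshold between treatments. Between populations within treatments, 4 of the 13 P450 genes, 3 of the 8 antioxidant enzymes, 2 of the 5 efflux transporters, 2 of the 15 other conjugation genes and 0 of the 9 regulators had an unadjusted p under 0.05, beside 18.8% of all named genes. These were Cyp6a2, Cyp6a20, Cyp6g1 and Cyp6w1, Prx3, Gtpx and TrxT, Mrp4 and Mdr50, and sgl and St1, and Cyp6a20 was the one past the adjusted threshold (adjusted p = 0.0470).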

How the data were processed

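The deposited values are log2 expression of 18952 probe sets on 18 arrays, to which the authors had applied RMA with affy (BioConductor 2.4), and they ran from 2.64 to 15.33. Of them 183 Affymetrix controls were left out. Genes were named from the platform annotation and RefSeq (Release 6 plus ISO1 MT), which also gave chromosome arms and neighbours, and a gene with several probe sets was represented by that with the largest mean. Treatment was a fixed term in limma 3.58.1 under R 4.3.3, population was a random term by duplicateCorrelation (correlation 0.192), and p-values were adjusted by Benjamini-Hochberg over 18769 probe sets. Populations within treatments were compared by a moderated F over 9 fixed groups. An intraclass correlation is the variance between populations of a treatment as a share of the variance within it, estimated from mean squares. The number of arrays limits the precision. In the treatment comparisons the p-values rest on the spread between arrays of a treatment. The correlation of 0.192 between arrays of a population was shared by all probe sets. For members with a higher intraclass correlation, such as Ugt37C2 (0.66), Ugt302K1 (0.54) and Ugt37A3 (0.47), these p-values may be too small. In the F test the p-values rest on the spread between 2 arrays of a population.

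Members and gene lists were chosen with earlier results of these data known. The members named were those at an unadjusted p under 0.05 in a comparison, the 8 with the smallest p between populations, the member of each remaining class with the largest difference, and 10 well-studied genes, while other members are examples. The fit was tested on simulated data. The alternatives were population means, independent arrays, a mixed model per probe set, median centring, repeated quantile normalization, filters on signal and on named genes, robust moderation, a replicate block, covariates, another summary of genes, a plain F test and each population left out. A setting without the 6 arrays high in yolk and eggshell transcripts was added after the data were seen. Python 3.11.15, numpy 2.4.6, pandas 2.3.3 and matplotlib 3.10.9 were used for the summaries.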

Additional observations from a re-analysis of the deposited data

Results flagged for a closer look

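Over 33 named genes and 3 treatments, 99 groups of 6 arrays were searched for a single array far from the others, and 3 were found (3.03%), where chance gives about 5%. GstD3 was at 9.90 on the second array of Control population 3, beside 9.75 on the next highest Control array. GstT4 was at 11.75 on the second array of CDX population 2, beside 11.57 on the next CDX array. Ugt305A1 was at 8.55 on the first array of Control population 1, beside 8.85 on the next lowest Control array.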

How the results depend on the processing

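No member passed the adjusted threshold between treatments under any of the 21 alternatives. The counts at an unadjusted p under 0.05 were 5, 6 and 2 for MLX against Control, CDX against Control and MLX against CDX. For MLX against Control the count moved to 8 with independent arrays, to 8 with the replicate block and to 2 with the mixed model. Over all 18769 probe sets 405 were higher and 382 lower in the main fit. With these settings they were 607 and 592, 497 and 467, and 316 and 279. For MLX against CDX the count moved to 1 with the mixed model and to 6 with the 3' minus 5' covariate. Over all probe sets 269 were higher and 221 lower in the main fit. They were 235 and 199 with the mixed model and 467 and 423 with that covariate. With a population left out the counts ranged between 2 and 8 (lowest without Control population 1, highest without MLX population 3), between 1 and 12 (without CDX population 2 and without CDX population 1) and between 2 and 8 (highest without CDX population 1). Over all probe sets the numbers higher and lower moved as well. For MLX against Control they were 448 and 324 without Control population 1 and 670 and 635 without MLX population 3. For CDX against Control they were 281 and 279 in the main fit. They were 193 and 182 without CDX population 2 and 430 and 433 without CDX population 1. For MLX against CDX they were 490 and 423 without CDX population 1. The Ugt median ranged between -0.028 and 0.062 for MLX minus Control and between -0.062 and 0.020 for MLX minus CDX, both lowest without MLX population 2 and highest without MLX population 3.

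Same-numbered populations of different treatments had correlations between -0.14 and 0.38 in their deviations from the treatment means. Those of differently numbered populations lay between -0.33 and 0.22. The highest same-numbered values, 0.38 and 0.24, were between MLX and Control populations 1 and 3. The main fit did not take the numbers as pairs, and whether they mark pairs was not tested. With the replicate block no probe set passed the adjusted threshold between treatments, and none did in the main fit either. The block was not applied to the test between populations, where calls were made.

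Between populations, the 2 members called became 0 with the plain F test, 1 with the 3' minus 5' covariate and 0 without the 6 arrays high in yolk and eggshell transcripts, which also left 14 of the 26 members at an unadjusted p under 0.05. This last setting was chosen after seeing the data and has 12 arrays. With a population left out there were between 0 and 3 members called, 0 without MLX population 1 or MLX population 2.

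Small differences changed sign in 7 of 29 named results. Ugt316A1 (MLX minus CDX) was 0.038 with the 3' minus 5' covariate and between -0.091 and 0.018 with a population left out. GstZ1 (MLX minus CDX) was -0.021 with that covariate. GstO1 (MLX minus CDX) was -0.0063 without the 6 yolk-high arrays and between -0.040 and 0.075 with a population left out. For CDX minus Control the ranges with a population left out were -0.0069 to 0.22 for Ugt49C1, -0.0050 to 0.13 for GstD1 and -0.020 to 0.048 for GstT1. For GstE1 (MLX minus Control) the range was -0.069 to 0.43.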
